A study of Mus musculus with 6 samples.

Results

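The imprinted growth genes H19, Igf2, Dlk1, Meg3, Peg3, Mest, Plagl1, Cdkn1c, Grb10 and Ndn were examined in sorted mouse mammary tumor cells. They were selected by name, with earlier results of the same arrays known, through the accession or name that the array files give each probe. All 10 genes had at least 1 probe (23 probes of the 55681 gene probes), and 9 of them were among the 22503 genes that passed the filter on dim probes and were tested. Igf2 did not pass. The cells came from tumors grown after orthotopic transplantation of late carcinoma cells of MMTV-PyMT mice, in which a mammary tumor virus promoter drives the polyomavirus middle T oncogene. Donor cells were either RANK+/+ or RANK-/-, where RANK, the product of Tnfrsf11a, is the receptor that activates NF-kB in response to RANK ligand, and both donors and hosts were C57BL/6 mice. Per the methods, the RANK-/- donors came from crosses of RANK+/- mice to MMTV-PyMT mice, and no Cre line is named for them. Oncogene, strain and transplantation were thus shared by both groups. Live CD45- cells were sorted from each tumor, which depletes leukocytes and leaves tumor cells together with any other CD45- cells. Per the methods, the host mice were females 6 to 10 weeks old. The age of the donors was not given in the sources used here.

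Each array received 1 RNA of each genotype in 2 colors. There were 3 pairs of RNAs, and each pair was hybridized to technical arrays A and B, giving 6 arrays. By the sample titles, from which the dyes were read, the RANK-/- RNA was in Cy5 in pair 1 and in Cy3 in pairs 2 and 3. Probe-specific dye effects and the pair thus cannot be told apart within a pair. Whether each RNA came from a tumor of its own is not in the labels, so the p-values measure the spread between these RNAs only. All ratios below are log2 values of the channel labelled RANK-/- over the channel labelled RANK+/+, with arrays A and B averaged, and the error is the SD over n = 3 pairs. The 95% intervals are ordinary t intervals from that SD and do not use the moderated error behind the limma p-values.

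In genomic imprinting, a gene is transcribed mainly from the chromosome inherited from one parent. Many paternally expressed genes, among them Igf2, Dlk1, Peg3, Mest, Plagl1 and Ndn, act on fetal growth or on progenitor cells, and several maternally expressed genes, among them H19, Cdkn1c and Grb10, restrain growth. Meg3 is the maternally expressed long noncoding RNA beside Dlk1, as H19 is beside Igf2. Most of these genes are high in the fetus, fall after birth and can be expressed again in tumors. The arrays measure total RNA of a gene and do not separate the parental alleles.

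Some of these transcripts also carry microRNAs. The mature microRNAs that RefSeq (GRCm38.p6) places inside H19, the Mest gene and Meg3 are printed because they are the short products of the noncoding or intronic part of the genes whose ratios spread widely between pairs. Capitals mark the seed, bases 2 to 8.
miR-675-5p, from H19: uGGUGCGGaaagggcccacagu
miR-675-3p, from H19: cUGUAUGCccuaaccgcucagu
miR-335-5p, inside Mest: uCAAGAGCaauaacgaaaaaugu
miR-335-3p, inside Mest: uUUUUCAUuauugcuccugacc
miR-1906, inside Meg3: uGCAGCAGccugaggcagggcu
miR-770-5p, inside Meg3: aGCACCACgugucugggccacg
miR-770-3p, inside Meg3: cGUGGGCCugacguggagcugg
The 7 seeds all differ. No level of these microRNAs was analysed here, and the host transcript's level below does not stand for them.

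No tested member passed the test between the genotypes, and every member had pairs on both sides of 0. The count called by limma was 0 of 9, with 0 at an unadjusted p under 0.05, against 0% of all tested genes called and 2.88% at the unadjusted threshold. The rank product test called 0 of 9 as well, against 0.0178% of tested genes called higher and 0.0133% called lower. The lowest limma p of a member was 0.138 unadjusted, for Ndn, with an adjusted p of 1.00. No gene had the same sign in all 3 pairs (0 of 9), whereas 19.6% of tested genes did. The 3 RANK-/- RNAs and the 3 RANK+/+ RNAs overlapped in level for every tested member, against 7.44% of tested genes whose groups did not overlap. With 3 pairs, the smallest p of an exact two-sided sign-flip test is 0.25.

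The values of the members were far apart between pairs. A ratio of at least 2-fold in either direction was seen in 4 of 9 members in pair 1 (6.50% of all tested genes), in 1 of 9 in pair 2 (4.82%) and in 2 of 9 in pair 3 (7.92%). In total 6 of 9 reached 2-fold in at least 1 pair, against 14.9% of tested genes. The pair ratios of 4 of 9 members spanned at least 2 on the log2 scale, against 5.57% of tested genes. The median SD between pairs was 0.88 over the members and 0.33 over all tested genes, and 8 of 9 members lay above the latter. Technical arrays differed far less, with a median technical SD of 0.04 over the members and 0.06 over all genes. In 9 of 9 members the pairs spread more widely than the technical arrays did, as was so for 92.8% of tested genes. These counts describe members that were named with earlier results of the same arrays known, and the excess was not tested.

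**Figure D1:**
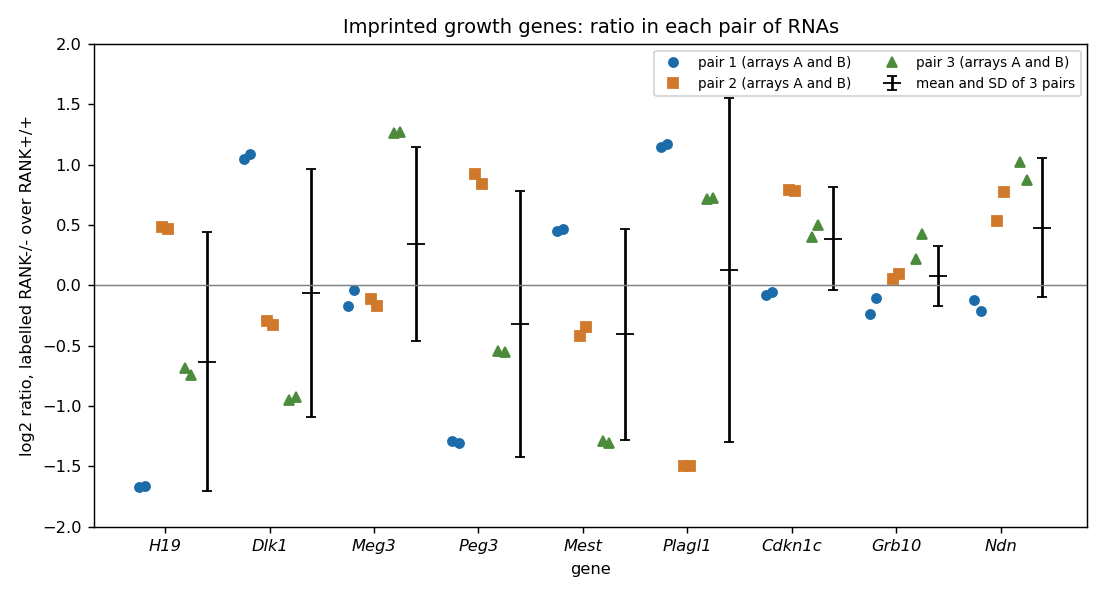
Log2 ratio (vertical axis) of the 9 tested imprinted growth genes (horizontal axis), with arrays A and B of each pair as neighbouring symbols and the mean with SD of the 3 pairs as a black bar. Symbols of arrays A and B nearly coincide, while the 3 pairs of a gene lie on both sides of 0 for each of the 9 genes.

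The label of the channels was examined on Tnfrsf11a itself. Its signal was higher in the channel labelled RANK-/- in all 3 pairs, by 2.03, 1.15 and 1.76 (mean 1.65 ± 0.45), which goes against the label. The sources used here do not say which part of the gene is deleted or whether its 1 probe lies in it, so directions below are those of the labels.

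H19, a noncoding RNA that restrains growth, had the lowest mean ratio of the 9. Its log2 level was 10.30, 10.53 and 10.10 in the RANK-/- RNAs of pairs 1, 2 and 3, and 11.97, 10.05 and 10.81 in the RANK+/+ RNAs. The RANK+/+ RNA of pair 1 stood highest and that of pair 2 lowest, with all 3 RANK-/- RNAs between them. The ratios were -1.67, 0.48 and -0.71, with a mean of -0.63 ± 1.07 and a 95% interval from -3.30 to 2.03 (limma adjusted p = 1.00). In pair 1 the RANK-/- signal was thus 3.17-fold lower, in pair 3 it was 1.64-fold lower, and in pair 2 it was 1.39-fold higher. An SD of 1.07 exceeded that of 94.8% of tested genes, and the technical SD was 0.03. The order from high to low was RANK+/+ of pair 1, RANK+/+ of pair 3, RANK-/- of pair 2, RANK-/- of pair 1, RANK-/- of pair 3 and RANK+/+ of pair 2. The lowest of these steps, between RANK-/- of pair 3 and RANK+/+ of pair 2, was about the size of the technical SD of a level, 0.05.

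H19 was measured by 5 probes, which the files name H19 without a RefSeq accession. All 5 were well above background in both channels of the 6 arrays. They ran from -1.74 to -1.19 in pair 1, from 0.26 to 0.55 in pair 2 and from -0.71 to -0.54 in pair 3. Each of the 5 gave the same sign as the others in each pair. Another 2 probes carry NR_001592, which background knowledge, but not the table used here, assigns to H19, and they were not counted among the 5. Of these, 1 was well above background in the 2 channels on 6 of 6 arrays and gave -1.65, 0.81 and -0.51, and the other was above background on 0 of 6. By the likeness of log2 level over the 6 RNAs (Pearson r, n = 6, with both RNAs of a pair on the same arrays), the named genes nearest to H19 were Kcnj4, a potassium channel (r = 0.987), and Gys1, the muscle glycogen synthase (r = 0.986). The other 3 of the 5 nearest features have no gene name in the tables used here, and the closest reached r = 0.998.

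Igf2, the growth factor that shares its locus with H19, was not well above background. Its 1 probe passed on 0 of 6 arrays in the channel labelled RANK-/- and on 0 of 6 in the channel labelled RANK+/+. The median spot signal was 34 to 68 in the former, with a local background of 29 to 64, and 29 to 84 in the latter, with a background of 28 to 70. No ratio is given, and no likeness to other genes could be computed.

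Of the genes for the other parts of the IGF axis, 13 of 16 were tested and 0 were called. Unadjusted limma p-values were under 0.05 for 2 of them, against 2.88% of all tested genes. Irs2, an adaptor of the insulin and IGF1 receptors, had ratios of 1.26, 0.62 and 0.98 (mean 0.95 ± 0.32, limma adjusted p = 1.00). Igfbp2, a secreted binding protein of IGFs, had -1.69, -0.63 and -0.67 (mean -0.997 ± 0.60, limma adjusted p = 1.00). These 2 and Insr, the insulin receptor (mean 0.06), kept 1 sign in all pairs, which is 3 of 13 genes, near the 19.6% over all tested genes. Igfbp6 had the next highest mean (0.64 ± 0.88) and Igfbp3 the next lowest (-0.25 ± 0.76), and both changed sign between pairs. Igf2r, the receptor that clears IGF2 and is itself maternally expressed, had 0.84, -0.65 and -0.40. Igf1r, the receptor that signals for IGF1 and IGF2, had -0.46, 1.04 and -0.37. The median of the 13 mean ratios was 0.07, against 0.01 over all tested genes. Irs2, Igfbp2, Igfbp6 and Igfbp3 were chosen for naming by their values.

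The neighbours Dlk1 and Meg3 had opposite signs in pairs 1 and 3. Dlk1, a transmembrane protein related to Notch ligands that keeps progenitors undifferentiated, had levels of 7.84, 7.42 and 7.58 in the RANK-/- RNAs and 6.77, 7.73 and 8.52 in the RANK+/+ RNAs. Its RANK-/- values lay within the range of the RANK+/+ values, which ran from the lowest RNA (pair 1) to the highest (pair 3). The ratios were 1.07, -0.31 and -0.94 (mean -0.06 ± 1.03, 95% interval from -2.61 to 2.49). In the RANK+/+ RNA of pair 1 the median spot signals of Dlk1 were only 61 and 66.5, over local backgrounds of 32 and 28. The second Dlk1 probe was dim, above background on 3 arrays in one channel and 4 in the other, and gave 0.32, -0.15 and -0.36, the same signs.

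Meg3, the noncoding RNA of this locus, had levels of 9.78, 9.31 and 10.33 in the RANK-/- RNAs and 9.89, 9.46 and 9.07 in the RANK+/+ RNAs. The RANK-/- and RANK+/+ RNAs of pair 3 were the highest and the lowest of the 6. The ratios were -0.11, -0.14 and 1.27 (mean 0.34 ± 0.80, 95% interval from -1.65 to 2.33), so pair 3 alone exceeded 2-fold (2.41-fold). Its other 2 probes gave 0.85 and 0.45 in pair 3, and in pairs 1 and 2 all 3 probes lay between -0.26 and 0.15, with both others above 0 in pair 2 where the brightest was below. In pair 3 Dlk1 was lower and Meg3 higher in the channel labelled RANK-/-. Their levels over the 6 RNAs had a Pearson r of -0.523. Mirg, a noncoding RNA of the same locus, had ratios of -0.00, -0.21 and 0.35.

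**Figure D2:**
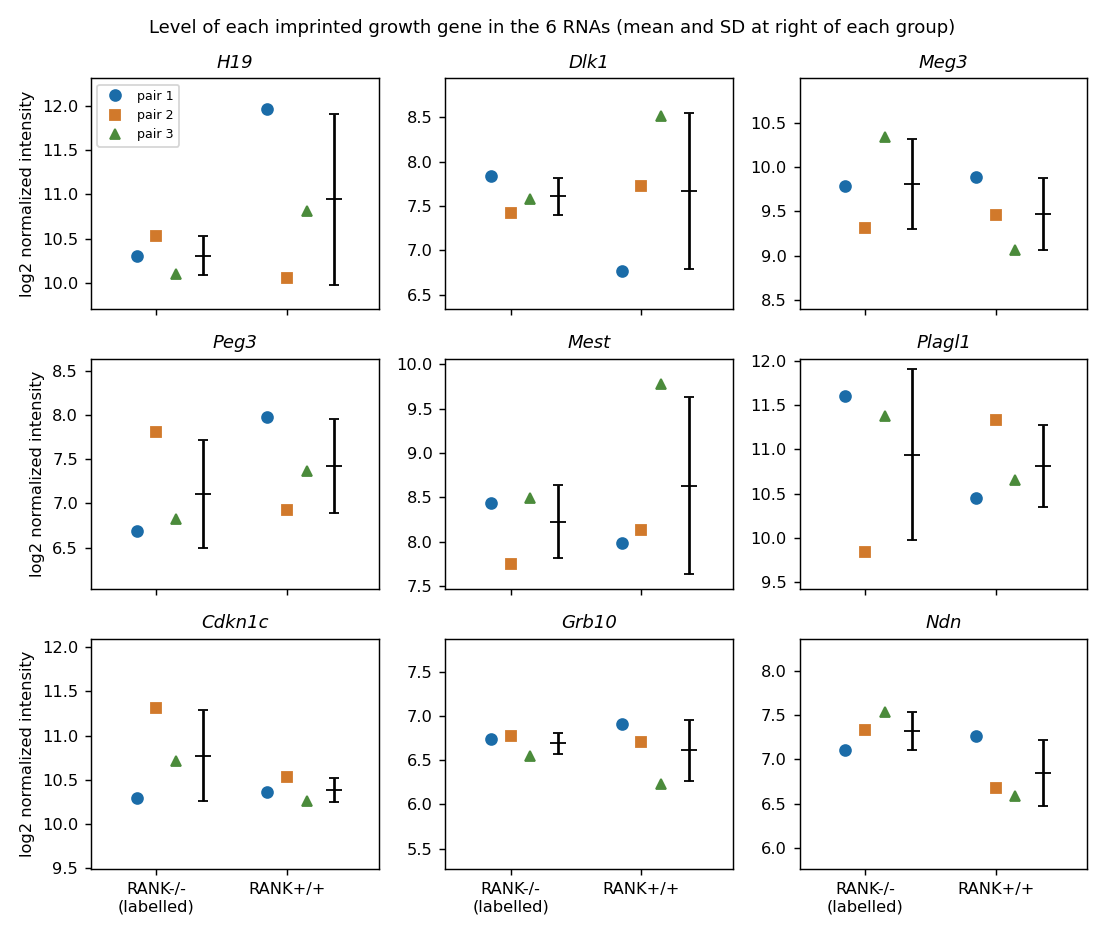
Log2 normalized intensity (vertical axis) of each tested gene in the 3 RNAs labelled RANK-/- and the 3 labelled RANK+/+, with symbols for the pair and the group mean with SD at the right of each group. All panels span the same number of log2 units, and the groups overlap in each of the 9 panels.

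Cdkn1c and Grb10, both known as restrainers of growth, had the smallest SDs between pairs of the 9. Cdkn1c encodes p57, an inhibitor of cyclin-dependent kinases. Its levels were 10.29, 11.31 and 10.71 in the RANK-/- RNAs and 10.36, 10.53 and 10.27 in the RANK+/+ RNAs, and the RANK-/- RNA of pair 2 stood above the rest. The ratios were -0.07, 0.78 and 0.45 (mean 0.39 ± 0.43, 95% interval from -0.68 to 1.45). Grb10, an adaptor that dampens insulin and IGF receptor signalling, was dim. Its levels were 6.74, 6.78 and 6.55 in the RANK-/- RNAs and 6.90, 6.70 and 6.23 in the RANK+/+ RNAs. Its ratios of -0.17, 0.08 and 0.32 gave a mean of 0.08 ± 0.25, with a 95% interval from -0.53 to 0.69. It was the only tested member whose SD lay below the median of all genes, and its technical SD was 0.10.

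Plagl1, a zinc finger transcription factor of the imprinted growth genes, had the widest spread of all 9. Its levels were 11.61, 9.84 and 11.38 in the RANK-/- RNAs and 10.45, 11.34 and 10.66 in the RANK+/+ RNAs. The RANK-/- RNA of pair 1 was the highest of the 6 and that of pair 2 the lowest. The ratios were 1.16, -1.50 and 0.72, a change of 2.23-fold higher, 2.83-fold lower and 1.65-fold higher. The mean was 0.13 ± 1.42, with a 95% interval from -3.41 to 3.66. An SD of 1.42 exceeded that of 97.9% of tested genes, and arrays A and B differed by a technical SD of 0.01. Of its 4 probes, 2 others gave the same signs (1.08, -1.39 and 0.76 for one, and 0.54, -0.90 and 0.52 for the other). The remaining probe, which was above background in the 2 channels on 6 of 6 arrays, gave -0.01, 0.10 and 0.05. The probes of Plagl1 therefore disagree, and the value printed is that of the brightest.

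Peg3, a zinc finger protein, had the opposite sign of Plagl1 in every pair. Its levels were 6.69, 7.81 and 6.82 in the RANK-/- RNAs and 7.98, 6.92 and 7.37 in the RANK+/+ RNAs. The ratios were -1.29, 0.88 and -0.54 (mean -0.32 ± 1.11, 95% interval from -3.06 to 2.43), and its second, dimmer probe gave -1.02, 0.76 and -0.20. Peg3 was dim in the RANK-/- RNAs of pairs 1 and 3, with median spot signals of 67 to 109 over local backgrounds of 35 to 67. Over the 6 RNAs, the levels of Peg3 and Plagl1 had a Pearson r of -0.921, and of the 36 pairs of members only Mest and Grb10 had a larger one in size (r = -0.932). Peg3 and H19 had the same sign in each pair (r = 0.798). RNAs of a pair share their arrays, so the 6 points are not independent, and no p is given.

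**Figure D3:**
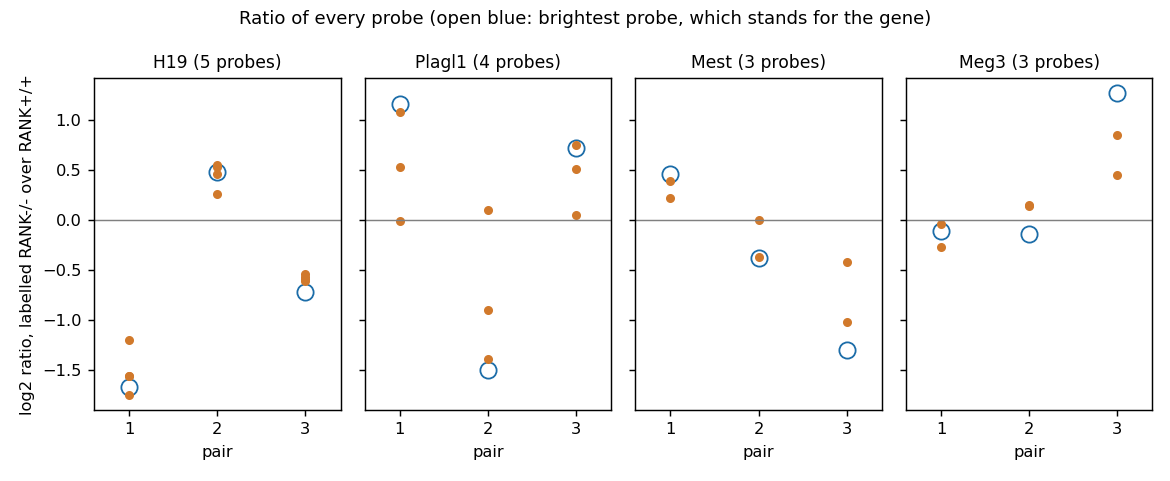
Log2 ratio (vertical axis) of every probe of H19, Plagl1, Mest and Meg3 in pairs 1 to 3 (horizontal axis), with the brightest probe as an open blue circle and the others as orange points. The 5 H19 probes lie together in each pair, and 1 of the 4 Plagl1 probes lies near 0 in every pair.

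The promoters were read for the letters of the Plagl1 binding motif. That choice followed the values of Peg3 and of the brightest Plagl1 probe in these same data, and a link between them was not tested. RefSeq promoter windows (300 bases, 250 before and 50 after each start, GRCm38.p6) were found for 8 of the 10 genes, in 15 windows. The motif searched was GGGGCCCC, which reads the same on both strands. It was found in 1 of the 15 windows, that of Peg3, and in 1.08% of all 32851 promoter windows. The Peg3 window lies at chr7:6730370-6730669 on the minus strand, and capitals mark the motif.
Peg3 promoter: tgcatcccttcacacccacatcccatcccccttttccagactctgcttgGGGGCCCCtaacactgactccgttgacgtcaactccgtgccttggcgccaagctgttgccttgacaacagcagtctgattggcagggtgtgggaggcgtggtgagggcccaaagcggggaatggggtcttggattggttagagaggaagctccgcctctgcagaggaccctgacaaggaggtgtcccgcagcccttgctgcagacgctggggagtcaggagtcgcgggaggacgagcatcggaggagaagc
The match begins at base 50 of the window and is a match of letters only. The windows of the members held 1 to 45 CpG dinucleotides, with a median of 13, against a median of 7 over all windows.

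Mest, a protein of the alpha/beta hydrolase fold, had levels of 8.44, 7.75 and 8.49 in the RANK-/- RNAs and 7.98, 8.13 and 9.78 in the RANK+/+ RNAs. The RANK+/+ RNA of pair 3 stood above the other 5. The ratios were 0.46, -0.38 and -1.29 (mean -0.41 ± 0.88, 95% interval from -2.58 to 1.77), so the channel labelled RANK-/- was 2.45-fold lower in pair 3. The probe was printed in 10 spots per array, whose SD within an array was 0.06 to 0.10. Of the other 2 Mest probes, the brighter gave 0.39, -0.37 and -1.02, and the dimmer gave 0.22, 0.00 and -0.42. Dlk1 and Mest shared their signs in all pairs (r = 0.826 over the 6 RNAs).

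Ndn, a MAGE family protein that restrains the cell cycle in neurons, had levels of 7.10, 7.33 and 7.53 in the RANK-/- RNAs and 7.27, 6.68 and 6.58 in the RANK+/+ RNAs. The RANK+/+ RNA of pair 1 lay within the range of the RANK-/- RNAs and the other two lay below it. The ratios were -0.17, 0.65 and 0.95 (mean 0.48 ± 0.58, 95% interval from -0.96 to 1.91), and its technical SD of 0.12 was the largest of the members.

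The spread within each genotype is given as a description. The SD of H19 was 0.97 over the 3 RANK+/+ RNAs and 0.22 over the 3 RANK-/- RNAs. That of Dlk1 was 0.88 and 0.21. In 2 of 9 members the RANK+/+ SD was more than 4 times the RANK-/- SD, against 6.61% of tested genes. It was larger among RANK+/+ RNAs in 5 of 9 members, near the 50.7% over all tested genes. Plagl1 ran the other way, with 0.46 over the RANK+/+ RNAs and 0.96 over the RANK-/- RNAs.

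Among 53 other imprinted genes, 34 were tested and 0 were called, with 2 at an unadjusted limma p under 0.05. They had 1 sign in all 3 pairs in 7 cases (6 higher and 1 lower, where 9.95% and 9.65% of all tested genes were), or 20.6% of 34, near the 19.6% over all tested genes. Their median SD between pairs was 0.36, close to that of all tested genes (0.33). Of those expressed from the paternal chromosome, the highest means were those of Mcts2 (0.56 ± 1.09) and Airn (0.53 ± 0.80), and the lowest those of Nnat (-0.39 ± 0.68) and Snrpn (-0.24 ± 0.78). Of those expressed from the maternal chromosome, Trappc9 (0.58 ± 0.33) and Cd81 (0.50 ± 0.67) were highest, and Kcnq1 (-0.36 ± 0.31) and Ascl2 (-0.30 ± 0.69) lowest. These 8 were chosen by their values, and each had a limma adjusted p of 1.00. Slc22a18, a transporter beside Cdkn1c, had 0.26, 0.42 and 0.69. Kcnq1ot1, the noncoding RNA of the same locus, had -0.09, 0.09 and 0.59.

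The genes of the imprint maintenance list, which also holds the Tet genes, were all measured (16 of 16), and 0 were called. The count with 1 sign in all pairs was 0 as well, against 19.6% of all tested genes. The highest means were those of Dnmt3a (0.19 ± 0.95), a DNA methyltransferase, and Tet2 (0.08 ± 0.33), which oxidizes methylated cytosine. The lowest were those of Dnmt3b (-0.59 ± 0.69), a DNA methyltransferase, and Ezh2 (-0.28 ± 0.47), a histone methyltransferase. Ctcf, which binds the control region between H19 and Igf2, had 0.27, -0.18 and -0.74.

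Markers of other cell types and of dividing cells moved between pairs as well. Bulk RNA cannot tell fewer cells of a type from less RNA per cell. The 7 pericyte markers had median ratios of 0.90, -0.63 and 0.55 in pairs 1 to 3, the signs of the brightest Plagl1 probe. All 7 were higher in pair 1 and lower in pair 2. In pair 3 Mcam (-0.27) and Notch3 (-0.30) were lower and the rest higher. The summed log2 level of the pericyte list ranged from 14.34 to 15.07 in the RANK-/- RNAs and from 14.03 to 14.97 in the RANK+/+ RNAs. The 10 genes of dividing cells had medians of -0.78, 0.70 and -1.08, the signs of H19 and Peg3, with summed levels from 14.29 to 15.22 and from 14.39 to 15.30. The 10 fibroblast markers had medians of 0.19, 0.30 and 1.69, and 4 of 10 were higher in all 3 pairs, against 9.95% of all tested genes. Their summed level ranged from 16.95 to 17.74 in the RANK-/- RNAs and from 15.73 to 16.81 in the RANK+/+ RNAs. It differed most in pair 3, the pair in which Meg3, Ndn and Grb10 had their highest ratios. Other lists shared these signs too. The endothelial, adipocyte and skeletal muscle medians had those of the brightest Plagl1 probe. The imprint maintenance median (-0.06, 0.12 and -0.23) had those of H19 and Peg3. The part of any of these lists in the ratios of the imprinted genes was not tested.

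The 7 epithelial markers, Epcam, Krt8 and Krt18 among them, all passed the filter on dim probes. They had medians of -0.41, -0.55 and 0.52, and members went both ways in each pair. Krt19 had -1.22, -3.95 and 0.03, Epcam had 1.04, -0.67 and 0.52, and Krt8 had -0.41, -0.55 and 2.08. The leukocyte list had 8 of 11 genes tested and medians of -0.46, 0.09 and 0.02, and Cd3d and Cd79a were among those that did not pass the filter. In pair 1 the neutrophil genes S100a8 and S100a9 had ratios of -3.99 and -4.12. The other tested genes of the list lay on both sides of 0 there, from -0.93 (Ptprc) to 0.49 (Itgam). H19, Peg3, Cdkn1c, Grb10 and Ndn had their lowest ratios in pair 1, whereas Dlk1, Mest and Plagl1 had their highest. Dlk1, Mest, Cdkn1c, Grb10 and Ndn changed sign between pair 1 and both other pairs. Pair 1 is the only pair with the RANK-/- RNA in Cy5, so dye and pair cannot be told apart here. The summed leukocyte level ranged from 13.06 to 13.42 in the RANK-/- RNAs and from 13.01 to 14.97 in the RANK+/+ RNAs. The 7 basal markers had medians of 0.00, 0.02 and -0.01, which hide members that went both ways. In pair 1 the keratins Krt5, Krt14 and Krt17 had ratios of -1.41, -1.81 and -1.66, and the oxytocin receptor gene Oxtr had 1.84. In pair 2 Krt5 had -2.13, and in pair 3 Krt17 had -2.10. Their summed level was 14.77, 14.96 and 14.76 in the RANK-/- RNAs of pairs 1, 2 and 3, below the 15.70, 15.16 and 15.05 of the RANK+/+ RNAs. The part of basal cells in the ratios of the imprinted genes was not tested. The 8 endothelial markers had medians of 0.10, -0.18 and 0.53. Of 6 adipocyte markers, Adipoq, Plin1, Lep and Cidec did not pass, and of 8 skeletal muscle markers only Des and Acta1 did. The part of leukocytes in these ratios was not tested.

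**Figure D4:**
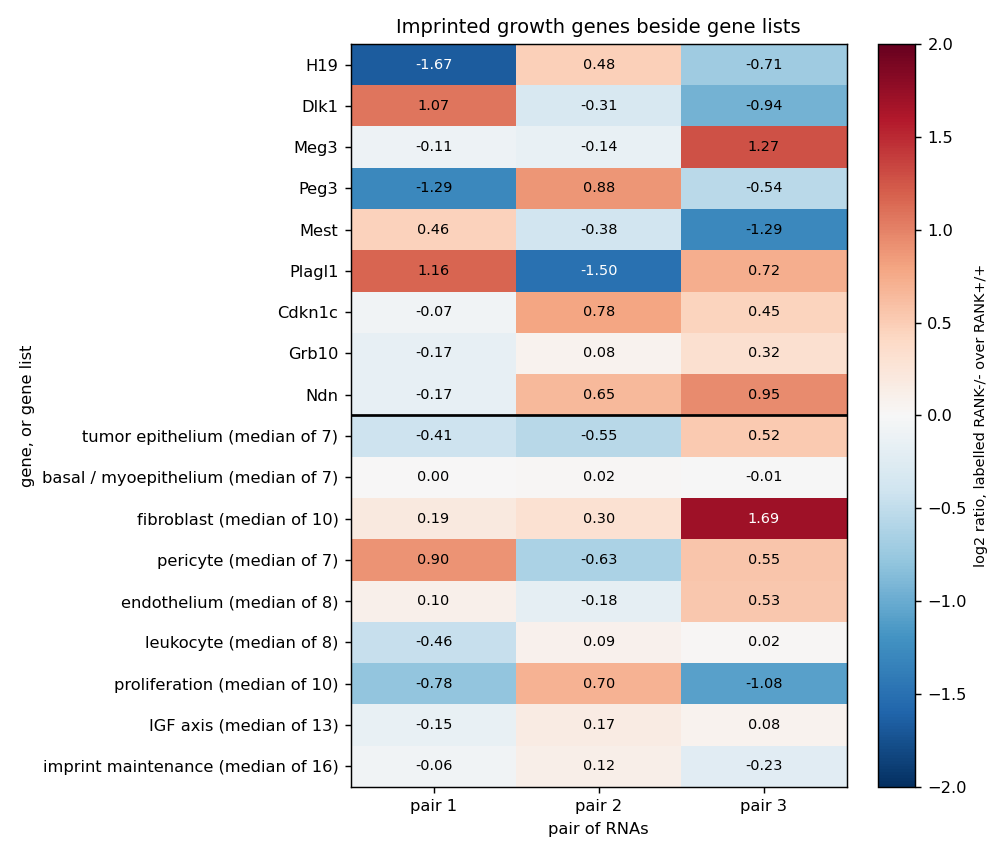
Log2 ratio in each pair (columns) for the 9 tested imprinted growth genes (above the line) and the median ratio of 9 gene lists (below it, with the number of tested genes), on a color scale from -2 to 2. The pericyte median and Plagl1 (brightest probe) share their signs, as does the median of the genes of dividing cells with H19 and Peg3. The endothelial median also has the signs of Plagl1, and the imprint maintenance median those of H19 and Peg3.

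Over all 22503 tested genes the pair ratios themselves correlated weakly across genes, with r of -0.279 for pairs 1 and 2, 0.178 for pairs 1 and 3 and -0.079 for pairs 2 and 3, whereas technical arrays correlated at 0.973 to 0.983. Genes are not independent replicates. On each array, 51.9% to 58.8% of gene probes were well above background in a channel, and no spot was saturated.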

How the data were processed

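Deposited scanner tables of 6 Agilent SurePrint G3 Mouse 2-color arrays (Feature Extraction 10.7.3.1, per the file headers) give median spot intensity and local background intensity, not normalized, which the authors extracted. They also hold processed intensities and a log10 ratio, and a deposited table of the whole series gives normalized log2 ratios made by the authors. These served as alternatives or were not used. The direction of the series table was not stated. It ran as RANK-/- over RANK+/+ when set against the scanner ratios on every array (r of 0.950 to 0.962). The scanner ratios were turned by the dyes read from the sample titles, so the comparison cannot check that reading. Its column medians lay between -0.008 and 0.004, and gene-wise centring was not given in the sources used here.

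Signals were background-corrected with normexp (offset 50) and normalized by intensity loess and Aquantile in limma 3.58.1 (R 4.3.3). Control and outlier spots were removed and spots of a probe averaged. Kept probes had to be flagged well above background, for the same genotype, by arrays A and B of 2 or more pairs, and the brightest kept probe stood for a gene. Symbols came from RefSeq (GRCm38.p6) by accession for 28026 of the 55681 probes, and other probes kept the name in the files. Arrays A and B were averaged, and limma (lmFit, eBayes, intercept only, two-sided) was run on n = 3 pair ratios with Benjamini-Hochberg adjustment over 22503 genes and a threshold of 0.05. A level is the mean log2 intensity of a probe plus or minus the ratio's share. A summed level is the log2 of the summed linear levels of a list. The rank product test used a threshold of 0.05 on the proportion of false positives (pfp). Per the methods, arrays were analysed with limma and a rank product test. The methods describe dye swaps, whereas the labels give arrays A and B the same dyes. All arrays lay on 1 slide with 1 scan date, so no batch could be tested. The number of arrays limits the precision. Both tests were checked on simulated data with changed genes of known size. The simulated data took their variances from limma's own fit, with errors independent between genes. They therefore cannot show how limma behaves where errors are shared between genes. On them, the limma test held its false call rate near the threshold. The rank product test did so where all genes had the same variance, but made more false calls than its threshold allows where variances differed between genes, as they do here.

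The members, lists and tests were chosen with earlier results of these data known. Named were all 10 members, the 2 highest and 2 lowest mean ratios of the imprinted, IGF and imprint maintenance lists, those of the 5 features most like H19 that have a gene name, and Tnfrsf11a. Genes named beyond these, the neighbours of members, the receptors of the IGF axis, Insr, Ctcf and cell type markers, were chosen after their values were seen.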

Additional observations from a re-analysis of the deposited data

How the results depend on the processing

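The count of imprinted growth genes called was 0 under every alternative run: other background corrections, normalizations, probe filters and probe choices, array A or B alone, the pair as a random block, a dye term, no replicate block (3 against 3 channels, 0 of 22503 genes called), another moderation, the rank product test and each left-out pair. At an unadjusted limma p under 0.05 it was 0 of 9, except 1 without pair 1 and 3 without pair 2. Over all 22503 tested genes, 905 were under that threshold without pair 1 and 1876 without pair 2, against 647 with all pairs. The count called over all genes was 0 except for 13 genes with the 6 arrays and the pair as a random block, and 7 genes by the rank product test. The count of members with the same sign in all pairs, 0 of 9, was also 0 under the other background corrections, normalizations, probe filters and probe choices and with array A or B alone (it was not recomputed for the other designs and tests, which do not enter it), and was 1 to 5 when 1 pair was left out and only 2 remained. The share of all genes with the same sign in 2 remaining pairs was not computed, so these last counts have no background. Without the filter on dim probes, 10 members were tested.

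The mean ratio of H19, Cdkn1c and Ndn kept its sign in all 18 settings run for it. That of Dlk1 was 0.042 with a normexp offset of 0, 0.054 from the processed signals, 0.036 from the series table and 0.22 with a dye term, against -0.06 in the text. That of Plagl1 was -0.082 with median centring in place of loess, against 0.13. With 1 pair left out, the mean ranged from -0.63 to 0.38 for Dlk1, from -0.12 to 0.58 for Meg3, from -0.92 to 0.17 for Peg3, from -0.84 to 0.039 for Mest, from -0.39 to 0.94 for Plagl1 and from -0.046 to 0.20 for Grb10. It was -1.19 to -0.12 for H19, 0.19 to 0.62 for Cdkn1c (0.39 in the text, lowest without pair 2 and highest without pair 1) and 0.24 to 0.80 for Ndn (0.48 in the text, lowest without pair 3 and highest without pair 1). The processed signals gave 0.96 for Ndn, 0.44 for Grb10 and -0.56 for Peg3, against 0.48, 0.08 and -0.32. Median centring gave 0.18 for Cdkn1c. No sign of a mean ratio of Dlk1, Meg3, Peg3, Mest, Plagl1 or Grb10 therefore holds over these settings. The cause was not tested. The lowest limma adjusted p of a member in any setting was 0.55. Dim members, Grb10, Ndn and Peg3 above all, and Dlk1 in the RANK+/+ RNA of pair 1, are limited by their signal over background. Igf2 could not be measured.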
